A study of Mus musculus with 22 samples.

Results

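P2 receptors sense nucleotides that leave stressed, dying or activated cells. The report covers 7 mouse genes of this family: P2rx4 and P2rx7 of the P2X class, and P2ry2, P2ry6, P2ry12, P2ry13 and P2ry14 of the P2Y class. Members were chosen by gene symbol. Every array probe whose RefSeq accession belongs to one of these symbols was taken, and all 7 genes had a probe among the 22383 genes tested. P2rx7 was measured by 3 probes and each of the other 6 genes by 1 probe.

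Bone marrow-derived macrophages (BMDM) were grown from bone marrow with M-CSF (10 ng/ml) for 9 days. The cells came from mice labelled as male C57BL/6 animals aged 10 to 14 weeks that were wild-type (wt), lacked the protein kinase MK2 (MK2-/-), or lacked both MK2 and its relative MK3 (MK2/3-/-). MK2 and MK3 are activated by the stress kinase p38. Both deletions were carried by every cell of the animal, on a background that the methods name as C57BL/6J. M-CSF was withdrawn shortly before the experiment, and the cells then received 100 ng/ml lipopolysaccharide (LPS), a cell wall component of Gram-negative bacteria, or stayed in medium for 360 min. There were 4 wt medium, 3 wt LPS, 4 MK2-/- medium, 4 MK2-/- LPS, 3 MK2/3-/- medium and 4 MK2/3-/- LPS arrays, each hybridised with RNA of 1 sample. The methods call the experiments independent. As the labels tie no culture to an animal, p-values measure the spread between these samples.

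P2X receptors are channels that open for cations when ATP binds outside the cell. P2X7 needs high ATP, and in macrophages its opening lets potassium out and triggers the NLRP3 inflammasome, the complex that activates caspase-1. P2X4 responds to lower ATP and sits largely in lysosomes. P2Y receptors couple to G proteins. P2Y2 (ATP and UTP) and P2Y6 (UDP) act mainly through Gq and phospholipase C, whereas P2Y12 and P2Y13 (ADP) and P2Y14 (UDP-glucose and UDP) act through Gi. P2Y2 guides phagocytes to dying cells, P2Y6 promotes uptake of particles, and P2Y12 is known from platelets and microglia.

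The promoters of the 4 members with the widest LPS differences are shown, as windows around an annotated gene start. They are RefSeq sequences of the assembly GRCm38.p6, 300 bases long, from 250 bases before the gene start to 50 bases from it, 5′ to 3′ on the strand of the gene. Capitals mark matches to the PU.1 core GAGGAA or the AP-1 site TGANTCA on either strand. P2rx7 lies at chr5:122643677-122643976 (+), P2ry2 at chr7:101012004-101012303 (-), P2ry13 at chr3:59210833-59211132 (-) and P2ry14 at chr3:59153443-59153742 (-), each the first RefSeq entry of its gene.
P2rx7: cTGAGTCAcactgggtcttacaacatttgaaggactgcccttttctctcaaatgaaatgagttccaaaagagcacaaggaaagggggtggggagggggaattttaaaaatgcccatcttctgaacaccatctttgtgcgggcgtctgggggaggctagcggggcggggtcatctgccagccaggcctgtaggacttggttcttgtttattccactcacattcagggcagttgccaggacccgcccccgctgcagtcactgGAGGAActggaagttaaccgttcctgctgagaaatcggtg
P2ry2: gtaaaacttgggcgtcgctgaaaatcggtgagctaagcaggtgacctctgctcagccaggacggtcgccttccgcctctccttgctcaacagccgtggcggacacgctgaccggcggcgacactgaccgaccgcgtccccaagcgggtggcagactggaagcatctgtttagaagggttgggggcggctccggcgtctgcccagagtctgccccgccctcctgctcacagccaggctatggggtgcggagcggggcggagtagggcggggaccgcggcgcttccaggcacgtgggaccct
P2ry13: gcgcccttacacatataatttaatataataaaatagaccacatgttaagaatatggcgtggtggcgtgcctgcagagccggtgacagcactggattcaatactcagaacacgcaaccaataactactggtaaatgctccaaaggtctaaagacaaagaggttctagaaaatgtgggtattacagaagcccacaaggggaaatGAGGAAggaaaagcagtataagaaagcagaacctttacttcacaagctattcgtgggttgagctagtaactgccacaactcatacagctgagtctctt
P2ry14: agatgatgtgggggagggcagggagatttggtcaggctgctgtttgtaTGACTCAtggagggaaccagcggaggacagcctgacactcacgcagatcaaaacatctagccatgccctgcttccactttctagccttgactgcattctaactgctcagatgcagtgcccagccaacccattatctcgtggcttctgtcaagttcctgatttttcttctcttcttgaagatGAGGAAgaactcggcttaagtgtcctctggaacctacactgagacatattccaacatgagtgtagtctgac

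In the P2rx7 window, 1 AP-1 match began 249 bases before the gene start and 1 PU.1 match began 10 bases after it. P2ry13 held 1 PU.1 match 48 bases before the start. P2ry14 held a PU.1 match 21 bases and an AP-1 match 202 bases before its start. The PU.1 core was also in the other P2rx7 entry and in the 3 other P2ry14 entries, whereas the AP-1 site was in 1 of these 3 and not in the other P2rx7 entry. The P2ry2 window held no match to any of the 5 motifs searched, and neither did its other entry or that of P2ry12. Besides the PU.1 core (in 28.3% of 32851 RefSeq promoter windows) and the AP-1 site (7.81%), the search covered TGACG, the core of the cAMP response element (20.8%), the interferon-stimulated response element by its consensus (3.44%) and the NF-kB consensus (4.51%). P2rx4 held TGACG 178 and 57 bases before its start. P2ry6 had no entry in the table. These letter matches are a description of the windows only, and which annotated start BMDM use was not tested.

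The knockouts were visible in their target transcripts. Mapkapk2, which encodes MK2, had a mean log2 signal of 11.92 in wt medium and 14.96 in wt LPS, against 8.88 and 11.61 without MK2 and 8.44 and 11.01 without both kinases. Mapkapk3, which encodes MK3, was at 13.12 and 12.12 in wt and at 11.17 and 7.99 in MK2/3-/- BMDM. All 6 macrophage markers on the array were well above background on all 22 arrays. On both MK2-/- arrays with replicate number 3, labelled male like the rest, the Y-linked Ddx3y was at 1.99 and 2.01, against 10.07 to 11.26 on the other 20 arrays, and Xist was at 7.66 and 7.77, against at most 5.78. One wt medium array, replicate 4, held raised Il6 (13.35, against 6.41 to 10.04 on the other wt medium arrays) and Il1b (14.35, against 9.75 to 10.97). Each genotype lay on its own slide, so that slide and genotype cannot be told apart between genotypes, whereas both treatments of a genotype were on the same slide. In such bulk RNA, fewer cells that express a gene and less RNA per cell cannot be told apart.

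In the 3 genotypes LPS lowered P2rx7 15.9-fold to 31.7-fold on its brightest probe and raised P2ry2 9.41-fold to 26.4-fold. The other P2rx7 probes fell less, by 2.05-fold to 7.44-fold. P2ry14 rose in all 3 genotypes too, by 3.81-fold to 7.31-fold. P2ry13 rose in MK2-/- and MK2/3-/- BMDM and not beyond the test in wt BMDM. P2rx4 fell slightly in MK2/3-/- BMDM, and P2ry6 and P2ry12 passed the LPS test in no genotype. Values are log2 signals after quantile normalisation, and differences are LPS minus medium on the log2 scale from limma. Calls required an adjusted p (Benjamini-Hochberg, 22383 genes) below 0.05.

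**Figure D1:**
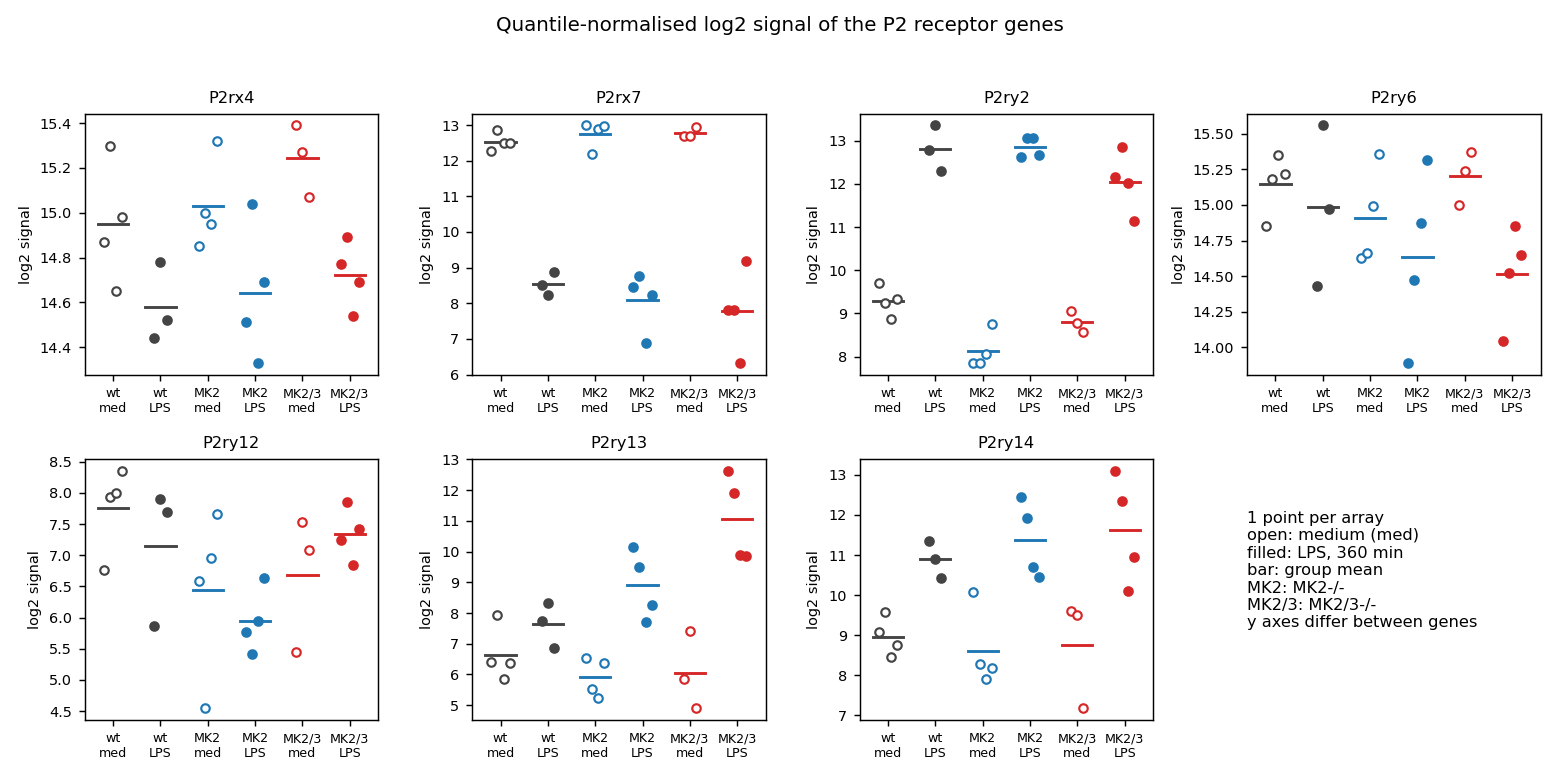
Quantile-normalised log2 signal (y axis) of the tested probe of each P2 receptor gene on the 22 arrays, by genotype and treatment (x axis). Each point is 1 array and bars are group means. The LPS points of P2rx7 (6.33 to 9.19) lie below all medium points (12.18 to 12.99), those of P2ry2 lie above, and those of P2ry13 are highest in MK2/3-/- BMDM.

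In wt BMDM 3 of the 7 genes were called, P2ry2 and P2ry14 higher and P2rx7 lower. Of all genes, 41.8% were called in the same comparison, 18.6% higher and 23.2% lower. MK2-/- BMDM had 4 called members, 3 higher and 1 lower, where 44.4% of all genes were called (17.7% higher and 26.7% lower). In MK2/3-/- BMDM 5 members were called, 3 higher and 2 lower, against 47.8% of all genes (20.3% higher and 27.5% lower). The medians of the 7 differences were -0.16, -0.27 and 0.66, beside -0.04, 0 and 0.02 over all genes. The groups did not overlap for any of these called differences, but the share of all genes without overlap is not given beside this. Without wt medium replicate 4, the array with raised Il6, 2 members were called in wt, P2rx7 and P2ry2, and the same count of 2 came from leaving out any of 5 other wt arrays.

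**Figure D2:**
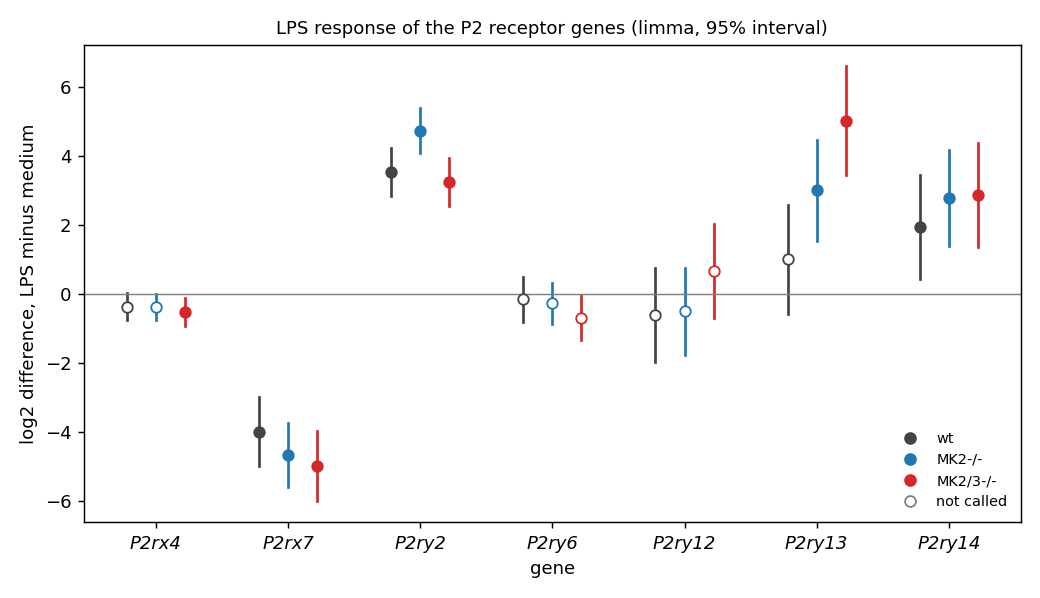
Log2 difference between LPS and medium (y axis) for each P2 receptor gene (x axis) in wt, MK2-/- and MK2/3-/- BMDM. Points are limma estimates, lines are 95% intervals and filled points are called. P2rx7 is lowest in each genotype, at -4 to -4.99, and P2ry13 reaches 5.01 in MK2/3-/- BMDM.

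P2rx7 was the member with the largest fall. Its brightest probe (A_52_P393314, designed on NM_011027) read 12.28, 12.86, 12.49 and 12.49 on the wt medium arrays and 8.51, 8.23 and 8.87 on the wt LPS arrays. In MK2-/- BMDM it read 12.99, 12.18, 12.9 and 12.98 in medium and 8.45, 8.76, 6.89 and 8.24 with LPS. In MK2/3-/- BMDM it read 12.68, 12.69 and 12.94 in medium and 7.8, 7.82, 6.33 and 9.19 with LPS. Every LPS array was thus below every medium array, and the LPS arrays of the knockouts spread more widely than those in medium. The difference was -4 in wt (SE 0.48, 95% interval -5 to -2.99, a 15.9-fold fall, adjusted p = 2.01e-06), -4.68 in MK2-/- (SE 0.44, -5.61 to -3.75, 25.6-fold, adjusted p = 5.33e-08) and -4.99 in MK2/3-/- BMDM (SE 0.48, -5.99 to -3.98, 31.7-fold, adjusted p = 7e-08). The probe was well above background on all 22 arrays.

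The other P2rx7 probes also fell, by different amounts. The probe A_55_P2183010, designed on the transcript NM_001038887, read 8.16 to 8.69 in wt medium and 7.38 to 7.51 with LPS. It fell 2.05-fold in wt (-1.03, SE 0.2, adjusted p = 0.000309), 2.89-fold in MK2-/- (-1.53, SE 0.18, adjusted p = 9.82e-07) and 3.12-fold in MK2/3-/- BMDM (-1.64, SE 0.2, adjusted p = 1.1e-06). Its groups did not overlap in any genotype. The third probe, A_51_P506733 on NM_001038845, read 7.8, 8.08, 8.28 and 8.09 in wt medium and 1.99, 7.97 and 6.64 with LPS, where the lowest value was not well above background. This probe therefore overlapped between the wt groups, with a difference of -2.53 (SE 0.85, adjusted p = 0.0222). In the knockouts it did not overlap, with -2.52 in MK2-/- (SE 0.79, adjusted p = 0.0131) and -2.9 in MK2/3-/- BMDM (SE 0.85, adjusted p = 0.00823). Without wt LPS replicate 1, the array at 1.99, the wt difference of this probe was -0.76 and was not called (adjusted p = 0.162). The calls of the other 2 probes in wt, and of all 3 probes in the knockouts, held on leaving out any single array. Levels of different probes are not compared.

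**Figure D3:**
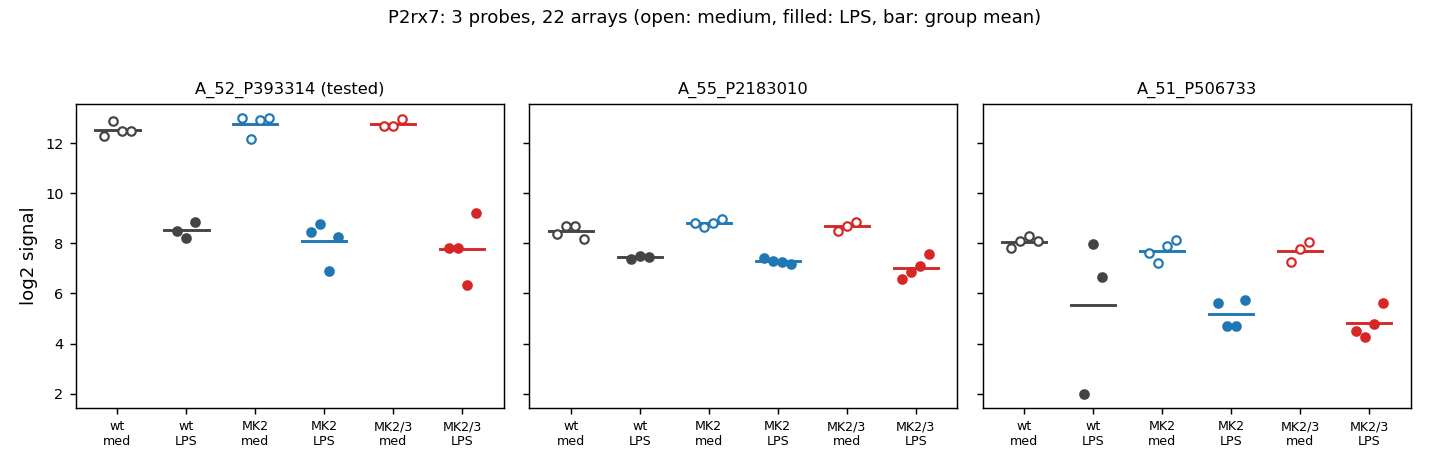
Log2 signal (y axis) of the 3 P2rx7 probes on the 22 arrays by genotype and treatment (x axis). Points are arrays and bars are group means. The LPS means are lower than the medium means for each probe and genotype, and 1 wt LPS array of A_51_P506733 is at 1.99.

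P2rx4, the ATP-gated channel whose gene lies next to P2rx7, differed little between treatments. It read 14.87, 15.3, 14.65 and 14.98 in wt medium and 14.44, 14.78 and 14.52 in wt LPS. In MK2-/- BMDM its values were 14.85 to 15.32 in medium and 14.33 to 15.04 with LPS. The groups overlapped in these genotypes, with differences of -0.37 in wt (SE 0.19, adjusted p = 0.129) and -0.39 in MK2-/- BMDM (SE 0.17, adjusted p = 0.0814). In MK2/3-/- BMDM it read 15.39, 15.27 and 15.07 in medium and 14.77, 14.89, 14.54 and 14.69 with LPS. Here the groups did not overlap, and the fall was 1.43-fold (-0.52, SE 0.19, interval -0.92 to -0.13, adjusted p = 0.0288). Scaled by the 75th percentile of each array instead of quantiles, the same differences were 0.32, 0.33 and 0.27 and none was called, so that the direction depends on the scaling. The median of all genes moved to 0.25, 0.26 and 0.24 under that scaling. Among the members P2rx4 had the smallest spread within groups, an SD of 0.22, at percentile 12.1 of all genes.

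P2ry2, the Gq-coupled receptor for ATP and UTP, was the member with the largest rise in wt BMDM. Its log2 signals were 9.7, 9.25, 8.87 and 9.34 in wt medium and 12.77, 13.35 and 12.3 with LPS. MK2-/- BMDM read 7.86, 7.86, 8.07 and 8.75 in medium and 12.63, 13.07, 13.06 and 12.66 with LPS. MK2/3-/- BMDM read 9.06, 8.78 and 8.58 in medium and 12.16, 12.85, 12.01 and 11.13 with LPS. All LPS arrays were above all medium arrays. LPS raised P2ry2 11.5-fold in wt (3.52, SE 0.34, interval 2.82 to 4.22, adjusted p = 1.14e-07), 26.4-fold in MK2-/- (4.72, SE 0.31, 4.07 to 5.37, adjusted p = 4.93e-10) and 9.41-fold in MK2/3-/- BMDM (3.23, SE 0.34, 2.53 to 3.94, adjusted p = 1.76e-07).

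In medium P2ry2 was 2.23-fold lower in MK2-/- than in wt BMDM (-1.16, SE 0.31, interval -1.81 to -0.51, adjusted p = 0.0289), and all 4 MK2-/- arrays were below all 4 wt arrays. The call was lost when any of 6 of these 8 arrays was left out (wt replicates 1, 2 and 4 and MK2-/- replicates 1, 2 and 3), with adjusted p between 0.0511 and 0.0939. Without both MK2-/- arrays that lack Y-linked signal the difference was -1.14 (adjusted p = 0.0625). With LPS the 3 genotypes overlapped, and no P2ry2 comparison between them was called. MK2/3-/- minus wt was -0.77 (adjusted p = 0.102), and with scaling by the 75th percentile it was -1.2 and called (adjusted p = 0.0142). The LPS response of P2ry2 in MK2/3-/- minus that in MK2-/- BMDM was -1.49 (SE 0.46, unadjusted p = 0.00425 and adjusted p = 0.329 in limma), and in MK2-/- minus wt it was 1.2 (SE 0.46, adjusted p = 0.569), neither called.

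P2ry6, the UDP receptor, is measured by a probe with 10 spots per array, of which 8 single spot values over all arrays were left out as outliers. It read 14.85, 15.18, 15.35 and 15.22 in wt medium and 14.43, 15.56 and 14.97 with LPS. The wt groups overlapped, as did the MK2-/- groups (14.63 to 15.36 in medium and 13.89 to 15.32 with LPS). The differences were -0.16 in wt (SE 0.31, interval -0.81 to 0.48, adjusted p = 0.713) and -0.27 in MK2-/- BMDM (SE 0.28, adjusted p = 0.479). MK2/3-/- BMDM read 15, 15.24 and 15.37 in medium and 14.04, 14.52, 14.85 and 14.65 with LPS. These groups did not overlap, yet the difference of -0.69 (SE 0.31, interval -1.33 to -0.04) was not called (adjusted p = 0.0743). It was called under 4 of 38 other settings, among them both fits with a replicate block. With scaling by the 75th percentile the 3 differences were 0.53, 0.43 and 0.09.

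P2ry13, an ADP receptor coupled to Gi, gave the widest differences between genotypes. It read 6.4, 7.94, 5.86 and 6.36 in wt medium and 7.74, 8.33 and 6.85 with LPS. In MK2-/- BMDM the values were 6.54, 5.52, 5.22 and 6.38 in medium and 10.16, 9.51, 7.71 and 8.27 with LPS. In MK2/3-/- BMDM they were 5.86, 7.41 and 4.91 in medium and 12.64, 11.91, 9.9 and 9.85 with LPS. The wt groups overlapped, and the LPS groups of both knockouts lay above their medium groups. LPS raised P2ry13 7.98-fold in MK2-/- (3, SE 0.7, interval 1.53 to 4.46, adjusted p = 0.00152) and 32.3-fold in MK2/3-/- BMDM (5.01, SE 0.75, 3.43 to 6.59, adjusted p = 1.73e-05). The wt difference of 1 was not called (SE 0.75, interval -0.58 to 2.58, adjusted p = 0.311).

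Among LPS-treated BMDM, P2ry13 was 10.8-fold higher in MK2/3-/- than in wt (3.43, SE 0.75, interval 1.85 to 5.01, adjusted p = 0.0034), and all 4 MK2/3-/- arrays were above all 3 wt arrays. Against MK2-/- BMDM it was 4.47-fold higher (2.16, SE 0.7, interval 0.7 to 3.62, adjusted p = 0.0461), with overlapping groups. The latter call was lost on leaving out 14 of the 22 arrays in turn, in a fit to these groups alone (adjusted p = 0.15), and also without both MK2-/- arrays that lack Y-linked signal (1.76, adjusted p = 0.131). MK2-/- minus wt was 1.27 (SE 0.75, adjusted p = 0.27). In medium its genotype differences ran from -0.72 to 0.15, none of them called. The LPS response was larger in MK2/3-/- than in wt BMDM by 4.01 (SE 1.07, interval 1.77 to 6.24, unadjusted p = 0.00137), which did not pass the adjustment in limma (adjusted p = 0.0857). Without MK2/3-/- LPS replicate 4 it was 4.42 with an adjusted p of 0.0362. This response difference was called under 5 of 37 other settings. Among them were both fits with a replicate block, by the letter in the array names or by replicate number.

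P2ry14, the UDP-glucose receptor, rose with LPS in every genotype. It read 9.08, 9.57, 8.44 and 8.76 in wt medium and 11.36, 10.89 and 10.43 with LPS. MK2-/- BMDM read 10.08, 8.28, 7.9 and 8.17 in medium and 12.44, 11.93, 10.69 and 10.46 with LPS. MK2/3-/- BMDM read 9.59, 9.51 and 7.18 in medium and 13.11, 12.36, 10.11 and 10.94 with LPS. No LPS group overlapped with the medium group of its genotype. The rise was 3.81-fold in wt (1.93, SE 0.72, interval 0.43 to 3.43, adjusted p = 0.0375), 6.85-fold in MK2-/- (2.78, SE 0.66, 1.38 to 4.17, adjusted p = 0.00192) and 7.31-fold in MK2/3-/- BMDM (2.87, SE 0.72, 1.37 to 4.38, adjusted p = 0.00257). The wt call was lost on leaving out any of 6 of the 7 wt arrays, all but medium replicate 2, with adjusted p between 0.0515 and 0.111. These tests use 1 spread shared by all groups. The SD of P2ry14 was 0.48 in wt medium and 0.47 in wt LPS, and 0.96 to 1.37 in the knockout groups. No comparison of P2ry14 between genotypes was called, and its LPS response in MK2/3-/- minus wt was 0.94 (SE 1.02, interval -1.19 to 3.07).

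P2ry12, the other ADP receptor of this group, lies beside P2ry13 on chromosome 3 and passed no LPS test. It read 6.76, 7.94, 8 and 8.36 in wt medium and 5.86, 7.91 and 7.69 with LPS. MK2-/- BMDM read 6.59, 4.55, 6.95 and 7.66 in medium and 5.77, 5.41, 5.94 and 6.63 with LPS, and MK2/3-/- BMDM read 5.44, 7.53 and 7.08 in medium and 7.24, 7.85, 6.85 and 7.42 with LPS. LPS and medium groups overlapped in each genotype. The LPS differences were -0.61 (SE 0.65, adjusted p = 0.489), -0.5 (SE 0.6, adjusted p = 0.544) and 0.66 (SE 0.65, adjusted p = 0.439). With LPS all 4 MK2/3-/- arrays were above all 4 MK2-/- arrays, a difference of 1.4 that was not called (SE 0.6, interval 0.15 to 2.66, adjusted p = 0.129). Fitted to these groups alone it was called (adjusted p = 0.0377).

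Across the direct genotype comparisons few members were called. With LPS, 0 of 7 differed between MK2-/- and wt, at a background of 11.6% of all genes. P2ry13 alone differed between MK2/3-/- and wt (background 23.7%), and again between MK2/3-/- and MK2-/- BMDM (13.8%). In medium, P2ry2 alone differed between MK2-/- and wt (8.57%), and 0 of 7 differed between MK2/3-/- and wt (1.95%) or between MK2/3-/- and MK2-/- BMDM (2.82%). At an unadjusted p under 0.05 in limma, the counts with LPS were 0, 2 and 3, and those in medium 2, 0 and 0, in the same order. For the difference of the LPS response, limma without a block called no member. Of all genes it called 0% for MK2-/- against wt, 0.652% for MK2/3-/- against wt and 0.0536% for MK2/3-/- against MK2-/- BMDM. At an unadjusted p under 0.05, 1 member passed in each of these 3 comparisons, P2ry2, P2ry13 and P2ry2. The share of all genes at this unadjusted threshold is not given, so the unadjusted counts have no background beside them. These comparisons share control arrays and are not independent of each other. The methods' t-test, run on the same values with Benjamini-Hochberg adjustment, called 3, 4 and 4 members for LPS and 0 in each genotype comparison. At its unadjusted threshold it passed 1, 1 and 1 in the comparisons in which limma called P2ry13 or P2ry2. Between MK2/3-/- and MK2-/- BMDM with LPS the member that passed was P2ry12, and P2ry13 did not pass. Of all 22383 genes, the adjusted t-test called 3839 higher and 4971 lower for LPS in wt. For LPS in MK2-/- it called 3732 and 5235, and in MK2/3-/- BMDM 3457 and 5085. Between genotypes it called 305 and 294, 20 and 48, and 611 and 118 with LPS. In medium these were 513 and 237, 102 and 64, and 203 and 155, in the order used above.

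In the order of the 6 group means, most neighbouring groups overlapped. For P2rx7 the 3 medium groups (12.53 to 12.77) came above the 3 LPS groups (7.78 to 8.54), and the step of 4 from wt medium to wt LPS was the only one without overlap. P2ry2 ran from MK2-/- LPS at 12.85 down to MK2-/- medium at 8.13, with its only clear step, 2.75, between MK2/3-/- LPS and wt medium. For P2ry14 the step of 1.93 from wt LPS to wt medium separated the treatments. P2ry13 fell from 11.07 in MK2/3-/- LPS through 8.91 in MK2-/- LPS and 7.64 in wt LPS to 5.92 in MK2-/- medium, and each group overlapped with the next. No neighbouring groups of P2rx4, P2ry6 or P2ry12 were apart.

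The 3 receptor genes clustered on chromosome 3 varied most between replicates. The SD within groups was 1.05 for P2ry13, 1 for P2ry14 and 0.9 for P2ry12, at percentiles 94.7, 93.3 and 89.6 of all genes. It was 0.66 for P2rx7, 0.45 for P2ry2 and 0.41 for P2ry6, beside a median of 0.42 over all genes. P2ry13 and P2ry14 were highest on replicates 1 and 2 of both LPS-treated knockout groups.

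The fibroblast markers Col1a1 and Col1a2, which encode type I collagen, also differed between replicates. In the LPS-treated knockouts they differed in the direction opposite to P2ry13 and P2ry14. The third fibroblast marker, Pdgfra, was well above background on 2 of 22 arrays. Summed, the collagen signal was 9, 9.81, 12.92 and 14.85 on the MK2/3-/- LPS arrays and 10.75, 10.03, 12.39 and 14.17 on the MK2-/- LPS arrays, lower on replicates 1 and 2 of each group, where P2ry13 and P2ry14 were higher, than on replicates 3 and 4. It spanned 13.38 to 15.89 in wt LPS, and 11.52 to 16.57, 10.27 to 14.61 and 8.46 to 15.45 in wt, MK2-/- and MK2/3-/- medium. These other groups were alike in part. In MK2/3-/- medium the array with the highest collagen (15.45) held the lowest P2ry13 (4.91) and P2ry14 (7.18). In wt medium the array with the lowest collagen (11.52) held the highest P2ry13 (7.94) and P2ry14 (9.57). MK2-/- medium had higher P2ry14 on replicates 1 and 2, where collagen was lower, whereas P2ry13 was mixed. In wt LPS the array with the highest collagen (15.89) held the highest P2ry14 (11.36), and that with the lowest (13.38) the highest P2ry13 (8.33). With the summed signal as a covariate, the P2ry13 difference between MK2/3-/- and wt under LPS was 2.61 (adjusted p = 0.012) and the difference of the LPS response was 3.95, now called (adjusted p = 0.0356 in limma). P2ry14 then rose by 2.06, 2.69 and 2.94 with LPS in wt, MK2-/- and MK2/3-/- BMDM (adjusted p = 0.00375, 0.000149 and 0.000122). The summed T cell markers lay in the same order as P2ry13 among LPS arrays, from 11.73 to 12.13 in wt LPS through 12.28 to 12.83 in MK2-/- LPS to 13.3 to 13.97 in MK2/3-/- LPS. Of these 4 markers, Lck and Cd3e were well above background on all 22 arrays, Cd3d on 10 and Cd3g, which was kept out of the sum, on 2. In medium the sum was 10.15 to 10.89 in wt, 11.24 to 12.38 in MK2-/- and 10.69 to 11.24 in MK2/3-/- BMDM, and Lck had means of 8.21 in medium and 11.84 with LPS. The collagen covariate was chosen after seeing the data and adjusts for that signal alone. How much fibroblasts or T cells contribute to the P2ry13 result was not tested.

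**Figure D4:**
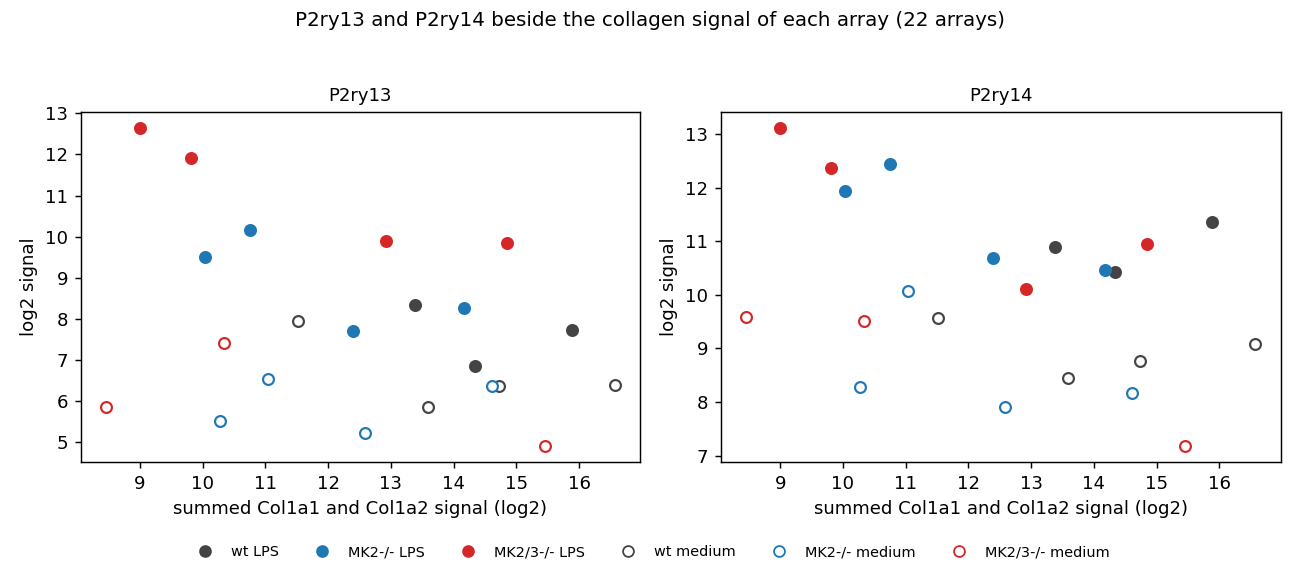
Log2 signal of P2ry13 and P2ry14 (y axes) against the summed log2 signal of Col1a1 and Col1a2 (x axes), 1 point per array, by genotype and treatment. The 4 LPS-treated knockout arrays with collagen at 9 to 10.75 carry P2ry13 at 9.51 to 12.64 and P2ry14 at 11.93 to 13.11.

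All 8 other listed P2 receptor genes were tested, and 1 was higher and 1 lower in wt, 1 and 0 in MK2-/-, and 1 and 2 in MK2/3-/- BMDM, where 41.8%, 44.4% and 47.8% of all genes were called, with medians of 0.03, 0.51 and -0.06. The ATP-gated channel gene P2rx2 rose from 7.2 to 8.31 in wt (adjusted p = 0.00046), by 0.51 in MK2-/- (adjusted p = 0.0496) and by 0.94 in MK2/3-/- BMDM (adjusted p = 0.0015). P2rx6, another channel gene, was well above background on 0 of 3 wt LPS and 1 of 4 wt medium arrays and was at least 1.51-fold lower with LPS (adjusted p = 0.00525). In MK2-/- BMDM its mean was 3.44 in medium and 4.29 with LPS, not called (adjusted p = 0.147), and in MK2/3-/- BMDM 2.89 and 2.6, with at most 1 array of each group above background. Under all 3 differences of the LPS response, no gene of any of the 5 pathway lists was called.

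Of the enzymes that remove nucleotides outside the cell, 9 of 10 were tested. Among them 0 rose and 1 fell in wt, 1 rose and 3 fell in MK2-/-, and 0 rose and 3 fell in MK2/3-/- BMDM, beside the 41.8%, 44.4% and 47.8% of all genes (medians -0.43, -0.29 and -0.28). Entpd1, which encodes the ATP- and ADP-hydrolysing CD39, fell in each genotype, with differences of -2.36 (SE 0.41, adjusted p = 0.000136) in wt, -2 (SE 0.38, adjusted p = 0.000247) in MK2-/- and -1.88 (SE 0.41, adjusted p = 0.000865) in MK2/3-/- BMDM. Its LPS arrays were below the medium arrays in all 3 genotypes.

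Of the genes for nucleotide release and UDP-glucose synthesis, 7 of 8 were tested. In wt and in MK2-/- BMDM 1 rose and 2 fell, and in MK2/3-/- BMDM 3 rose and 3 fell, at the same background of 41.8%, 44.4% and 47.8% (medians -0.31, -0.27 and -0.46). Panx1, the pannexin channel that lets ATP out, fell, with differences of -1.44, -1.56 and -1.45 (adjusted p = 0.000943, 0.00016 and 0.000687). Slc17a9, the vesicular nucleotide transporter, also fell, with -1.59, -2.4 and -2.83 (adjusted p = 4.4e-05, 6.83e-08 and 2.41e-08). Under LPS Slc17a9 was lower in both knockouts than in wt, at -1.23 for MK2-/- and -1.64 for MK2/3-/- (adjusted p = 0.00656 and 0.000254). Gja1, which encodes a connexin, rose by 2.85 in wt (adjusted p = 0.00634), at least 5.2-fold in MK2-/- (adjusted p = 0.00153), where no medium array was well above background, and by 2.83 in MK2/3-/- BMDM (adjusted p = 0.00533), where 1 of 3 medium arrays was well above background, as were 2 of 4 in wt. Ugp2, which makes UDP-glucose, was not called (-0.31, -0.27 and -0.46).

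Inflammasome genes downstream of P2X7 mostly rose. In wt and in MK2-/- BMDM 6 of 9 rose and 2 fell, and in MK2/3-/- BMDM 6 rose and 1 fell, where 18.6%, 17.7% and 20.3% of all genes rose (medians 1.22, 1.05 and 1.13). Nlrp3, the sensor, rose by 3.21, 3.63 and 3.88 (adjusted p = 1.55e-09, 5.85e-11 and 9.19e-11), and under LPS it was 0.89 higher in MK2/3-/- than in wt BMDM (adjusted p = 0.00581). Casp1 rose by 2.28, 2 and 1.97, Gsdmd, the pore protein cleaved by caspases, by 1.22, 1.05 and 1.13, and the adaptor Pycard by 1, 0.65 and 0.97. The cytokine substrates Il1b and Il18 rose by 6.76, 8.46 and 7.72 and by 3.35, 4.42 and 4.31, respectively. Txnip, a thioredoxin inhibitor that binds NLRP3, fell, with differences of -3.03, -3.12 and -2.7. Nek7, which NLRP3 needs for its assembly, fell in wt and MK2-/- BMDM (-0.61 and -0.52), and Ano6 was not called.

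Among the 8 G protein and phospholipase genes used by P2Y receptors, 2 rose and 1 fell in wt, and 2 rose and 3 fell in each knockout, with 41.8%, 44.4% and 47.8% of all genes called (medians -0.02, -0.32 and -0.49). The Gi subunit genes went opposite ways in every genotype. Gnai2 fell (-0.98, -0.93 and -0.72) and Gnai3 rose by 0.61, 0.53 and 0.71. Plcb3, the phospholipase C isoform, rose by 1.05, 0.68 and 0.94 (adjusted p = 0.000159, 0.00306 and 0.000355), and Gnaq was not called (0.02, 0.02 and -0.06). Gna11 of the same list had lower means with LPS (8.3, 7.62 and 6.79) than in medium (9.06, 8.58 and 8.68).

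**Figure D5:**
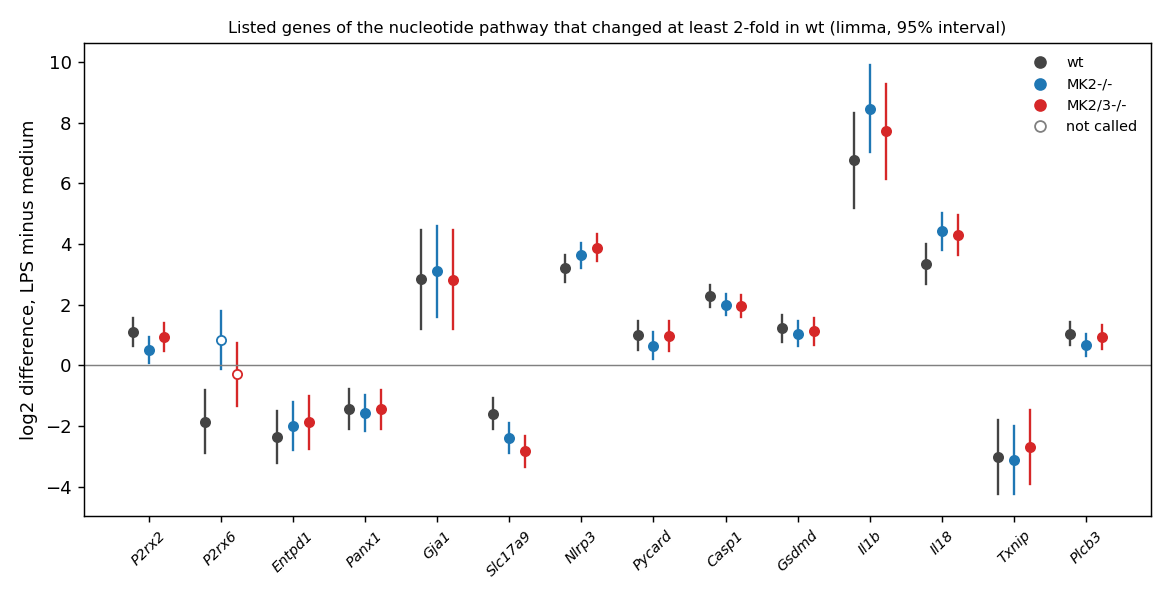
Log2 difference between LPS and medium (y axis) of the listed pathway genes called in wt with at least 2-fold change (x axis), in wt, MK2-/- and MK2/3-/- BMDM, with 95% intervals. Filled points are called. Il1b rises most, by 6.76 to 8.46, and Txnip, Entpd1, Slc17a9 and Panx1 fall in each genotype.

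The members lie in 3 clusters, and their neighbours were called in either direction or not at all. On chromosome 5 the order is Atp2a2, Ift81, P2rx7, P2rx4, Camkk2 and Anapc5. Ift81, an intraflagellar transport gene next to P2rx7, fell in wt (-1.94, adjusted p = 0.000426) and MK2-/- BMDM (-2.95, adjusted p = 1.08e-06) and was at least 6.34-fold lower in MK2/3-/- BMDM (adjusted p = 3.12e-08), where no LPS array was well above background. Camkk2 on the far side of P2rx4 was not called (-0.2, -0.57 and -0.59), and Anapc5 fell (-0.82, -0.95 and -0.82, adjusted p = 0.0376, 0.0101 and 0.0341). Atp2a2, the calcium pump, was called in MK2/3-/- BMDM alone (-2.11, adjusted p = 0.000183), and whether its response differed between genotypes was not shown by the interaction (adjusted p = 0.378 against wt).

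On chromosome 7 the order is Relt, Arhgef17, P2ry6, P2ry2, Fchsd2 and Atg16l2. The genes beyond P2ry2 were called in opposite directions. Fchsd2 rose by 1.53, 1.94 and 1.22 (adjusted p = 2.47e-05, 3.22e-07 and 0.000176). Atg16l2, an autophagy-related gene, fell (-2.04, -2.46 and -3.5, adjusted p = 7.04e-08, 1.15e-09 and 7.93e-11), and its response was more negative in MK2/3-/- than in wt BMDM, a difference of -1.46 (SE 0.26, adjusted p = 0.0246). Relt and Arhgef17 were not called for LPS. On chromosome 3, Gpr171 next to P2ry14 differed by 0.33, 1.7 and 1.79 and Igsf10 next to P2ry12 by -0.07, 0.02 and 0.38, with no call. Med12l and Gm5709 had no tested probe.

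Genes with the most similar pattern were found from the root mean square (RMS) difference of the 6 group means, each gene centred on its own mean. For P2rx7 these were Plscr4, a phospholipid scramblase (RMS 0.16), and Klf10, a zinc finger transcription factor (0.17). Plscr4 was well above background on 11 of 22 arrays and on no LPS array, so that its LPS means are floor values and its RMS is not exact. P2ry2 was closest to Zeb1 (0.11) and Rcl1 (0.13), and P2ry14 to Ktn1 (0.07) and Lyrm1 (0.11). P2ry13 had no gene as close, with Armcx6 at 0.34 and Ell3, above background on 20 arrays, at 0.42. P2ry12 was nearest to Cdh13 (0.12) and Atg9b (0.2), which were well above background on 6 and 17 of 22 arrays, so that these values rest in part on the floor. For P2rx4 (Ndor1 and Hccs, 0.04 each) and P2ry6 (Necap1 and Wdr61, 0.05 each) small values go with patterns that are nearly flat. The likeness is over 6 groups that share 1 treatment contrast.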

How the data were processed

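RNA of each sample was labelled with Cy3 and hybridised by the authors to a 1-colour Agilent mouse array. The deposited scanner output holds intensity values per spot, background-corrected by Feature Extraction 11.0.1.1 per the file headers and not normalised between arrays. A log2 value table, which the authors had quantile normalised and centred per probe on the median sample, served as an alternative. Control spots (3671 of 62976) were left out, spots marked as outliers were set to missing, spots of a probe were averaged, and log2 intensities were quantile normalised over the 22 arrays, which gave 55681 probes. The precision is limited by the 3 or 4 arrays per group. Median signals of arrays ranged from 32.7 to 108, and 61.1% to 82.7% of probes were well above background. Outlier spots numbered 2927 on MK2-/- LPS replicate 3 and 115 to 261 on the others.

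Probes with RefSeq (29150, of which 27509 were named through a RefSeq table of GRCm38.p6) or GenBank accessions (3735) were kept where at least 3 arrays showed them well above background (28103). The probe with the highest mean stood for its gene, which left 22383 genes, 18375 with a symbol. A mean per group was fitted over all 22 arrays in R 4.3.3 (limma 3.58.1, data.table version 1.17.8), without a block, and the fit was tested on simulated data. Samples were grouped by their labels. P-values are two-sided, and adjusted p-values are Benjamini-Hochberg values over all genes. For a probe below this mark on every array of the dimmer group, the fold is given as "at least", from the brighter group's mean and, for the dimmer group, the larger on each array of its reading and the dimmest signal of any probe above the mark, averaged. Pathway genes were named if called in wt with at least 2-fold change or in a difference of the LPS response. Up to 2 neighbours on each side of a cluster and the 2 most similar genes per member were also named. A few further listed genes (Ugp2, Nek7, Ano6, Gnai2, Gnai3, Gnaq, Gna11) were named after their values were seen. The members and lists were chosen with earlier results of these data known. Alternatives covered scaling, background correction, the authors' table, filters, probe choice, tests, array weights, blocks and arrays left out.

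Marker lists were summed per array. Lists of neutrophil (5 of 6 markers on the array), B cell (3 of 3), dendritic cell (4 of 4), mast cell or basophil (4 of 4), megakaryocyte or platelet (4 of 4), erythroid (3 of 3) and endothelial markers (2 of 2) had summed log2 signals with LPS of 11.45 to 13.48, 6.8 to 7.99, 15.46 to 16.35, 6.11 to 8.57, 13.8 to 15.21, 3.79 to 6.01 and 5.09 to 7.75.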

Additional observations from a re-analysis of the deposited data

Results flagged for a closer look

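The tested P2rx7 probe had 1 array apart from its group. In MK2-/- medium, replicate 2 read 12.18, and the nearest other array read 12.9. The gap between them made up 0.888 of the range of the group and passed the critical value of Dixon's test for 4 arrays. It was 1 of 28 such checks on the tested probes, and chance alone gives about 1 in 20. None of the 8 checks on the other P2rx7 probes passed that value.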

How the results depend on the processing

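The 7 genes in the 12 comparisons were recomputed under 38 other settings, which gave 3171 values. Of these, 3112 stayed on the same side of the threshold, although 86 of them, called in neither fit, changed sign. Another 40 lost a call, 18 gained one and 1 called value reversed. P2rx4 with LPS in MK2/3-/- BMDM reversed under scaling by the 75th percentile, to 0.27 (adjusted p = 0.327). That scaling moved the share of higher among all LPS calls from 44.5% to 58% in wt, from 39.9% to 52.3% in MK2-/- and from 42.4% to 51.9% in MK2/3-/- BMDM. In the 6 direct genotype comparisons, in the order of the report, it moved from 38.8%, 39.7%, 56.1%, 62.8%, 71.6% and 70.7% to 60.2%, 53.2%, 66.2%, 77.9%, 84.7% and 89%. Counts of called members moved as follows. For MK2/3-/- against wt with LPS the count of 1 became 2 under that scaling, by P2ry2, and 0 with the methods' t-test. That t-test called only 20 genes higher and 48 lower of all 22383 in this comparison. The 75th percentile scaling called 4353 and 3826, against 2105 and 3196 in the main fit. For MK2/3-/- against MK2-/- with LPS the count of 1 became 0 under that scaling, without a filter on dim probes, with the methods' t-test and without both arrays that lack Y-linked signal. In a fit to the compared groups alone it stayed at 1, but P2ry13 lost its call (adjusted p = 0.15) and P2ry12 gained one (1.4, adjusted p = 0.0377). For MK2-/- against wt in medium the count of 1 became 0 with the t-test and without the same arrays. With array weights 2 members were called between MK2-/- and wt under LPS, P2ry12 (-1.71, adjusted p = 0.0199) and P2ry13 (2.01, adjusted p = 0.0341). Those weights called 3037 genes higher and 3354 lower of all 22383 in this comparison, against 1007 and 1591 in the main fit. The P2ry13 response also differed between MK2/3-/- and wt BMDM (4.66, adjusted p = 0.0137), a count of 1. Of all genes, 254 higher and 875 lower were called for this response difference, against 26 and 120 in the main fit. With collagen as a covariate the count for this response difference was also 1. Leaving out the arrays without Y-linked signal and the collagen covariate were chosen after seeing the data. The probe with the highest LPS change in wt would be A_55_P2183010 for P2rx7, at -1.03.

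Leaving out each array in turn gave LPS counts of 2 to 3 in wt, 4 to 5 in MK2-/- and 4 to 6 in MK2/3-/- BMDM. The genotype counts with LPS were 0 for MK2-/- against wt, 1 to 2 for MK2/3-/- against wt and 0 to 1 for MK2/3-/- against MK2-/- BMDM. In medium the counts were 0 to 1 for MK2-/- against wt and 0 for the others, and for the difference of the response between MK2/3-/- and wt they were 0 to 1. P2rx4 lost its call without MK2/3-/- medium replicate 1 or 2 or LPS replicate 3. The 14 arrays that ended the P2ry13 call between MK2/3-/- and MK2-/- gave adjusted p of up to 0.133. Without MK2/3-/- LPS replicate 4, P2rx7 was lower than in wt under LPS (-1.22, adjusted p = 0.042), and without replicate 2 so was P2ry2 (-1.04, adjusted p = 0.0289).

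With a replicate block by the letter in the array names, or by the replicate number of the titles, the count for the difference of the response between MK2/3-/- and wt was 1, P2ry13, at 4 (adjusted p = 0.0462) and 4.07 (adjusted p = 0.0452). P2ry6 then fell with LPS in MK2/3-/- BMDM (-0.7, adjusted p = 0.0411, and -0.69, adjusted p = 0.0489). No other call of a member changed. For the response difference between MK2/3-/- and wt, the letter block called 69 genes higher and 281 lower. The number block called 64 and 263, and the main fit 26 and 120. Arrays of like letter or number deviated together (r above 0.1) in 7 of 10 pairs, against 6 of 30 pairs of unlike letter or number. By this measure the pairing was not shown for every pair. Medium and LPS arrays of the same genotype and letter did share the age of the mice. Their summed collagen signals also had the same order of letters in both treatments of each genotype. Both arrays that lack Y-linked signal were the MK2-/- medium and LPS arrays of the same letter (c) and replicate number (3). The labels do not name these pairs. The main fit uses no block, so that any such pairing is left out of its p-values. Dim probes with a group below background have only a bound.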
